A study of Mus musculus with 3 samples.

Results

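The cells described here are the control cells of the Mesp1-Cre lineage at embryonic day 8.0 (E8.0) and day 9.5 (E9.5) in the mouse. They were chosen as all cells whose condition is wildtype and whose time point is e8.0 or e9.5 in the authors' per-cell table, in barcode samples of at least 20 cells. This gave 7276 of 14777 cells, 1549 at E8.0 and 5727 at E9.5, in 8 of 22 barcode samples. One further E9.5 control sample of 6 cells was left out. A barcode sample is the set of cells that carry 1 MULTI-seq lipid barcode, a tag added to whole cells before pooling. The labels do not say whether a barcode marks 1 embryo or a pool of embryos, so that p-values measure only the spread between barcode samples.

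All groups were C57BL/6 embryos with Mesp1-Cre and Ai9, a reporter that turns on tdTomato after Cre recombination, and tdTomato-positive cells were sorted before droplet sequencing. The controls called wildtype carried Wls fl/+, that is 1 floxed Wls allele with the Cre, and therefore were not free of recombination. Mutants carried Wls fl/fl. Recombination followed Mesp1-Cre, so the sort takes in whatever descends from cells that once had Mesp1-Cre activity, not mesoderm by its current state.

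Mesp1 is a transcription factor switched on for a short time in the mesoderm that leaves the primitive streak, and its descendants form the heart, much of the vasculature, part of the blood, and muscle and connective tissue of the head and trunk. Wls carries Wnt ligands to the cell surface and is needed for their secretion. Between the 2 stages the heart tube forms, loops and begins to make chambers, somites are added, and the first blood cells enter the circulation.

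The E8.0 controls were Bar24 (367 cells), Bar26 (614) and Bar29 (568), all in sequencing run 1. The E9.5 controls were Bar22 (1859 cells) and Bar23 (1719) in run 1, Bar4 (608) in run 2, and Bar7 (164) and Bar9 (1377) in run 3. Run 1 here is the run that the labels date 03/04/20, and runs 2 and 3 are #1 and #2 of 10/21/19, which the per-cell table dates a day later. Only run 1 held both stages, and each comparison was therefore repeated within it. Values per sample are written below in the order Bar24, Bar26 and Bar29 for E8.0, and Bar22, Bar23, Bar4, Bar7 and Bar9 for E9.5. The E8.0 samples held 44310479 UMIs (unique molecular identifiers, 1 per captured RNA molecule) and the E9.5 samples 118946968. The median cell had 28300 UMIs at E8.0, 19921 at E9.5 and 22356 in the E9.5 samples of run 1. Levels are given as CPM, the UMIs of a gene relative to a fixed number of UMIs per sample. A log2 change compares E9.5 with E8.0, is positive where E9.5 was higher, and comes from edgeR's quasi-likelihood test with Benjamini-Hochberg adjustment over all genes tested, with n = 3 samples at E8.0 and n = 5 at E9.5 and a threshold of 0.05.

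The labels were first set against Wls, Mesp1 and genes of other cells. Wls was at 65.4, 55.1 and 54.1 CPM in the E8.0 controls and at 46.1, 46.0, 35.9, 38.5 and 40.6 CPM in the E9.5 controls, while the mutants of both stages lay between 7.25 and 14.2 CPM. Mesp1 itself was at 0 to 2.88 CPM and was not tested. Summed over a list of neural markers the level was 47.4 to 76.6 CPM at E8.0 and 47.7 to 69.4 at E9.5. Neural crest markers summed to 14.5 to 21.6 and 5.62 to 18.8 CPM, and endoderm and epithelium markers to 35.0 to 60.2 and 15.6 to 45.2 CPM. Their part in the changes below was not tested. In Bar29, 37.7% of the cells had Xist but no Y-linked UMI and 42.6% the reverse, so it held cells of both sexes, whereas 61.6% of the cells of Bar7 had only Y-linked UMIs. In the other 6 samples 65% to 73.6% of the cells had Xist only. There were 23 cell barcode sequences found in more than 1 run.

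Of 17039 genes tested, 586 passed the threshold (3.44%), 338 higher (1.98%) and 248 lower (1.46%) at E9.5. An unadjusted p under 0.05 was found for 3227 genes. Of the 586, 250 rose and 166 fell by more than 1 on the log2 scale. In run 1 alone, a fit of 5 of the same 8 samples that called 6.24% of genes, all 582 that could be tested had the same direction, as did 77.1% of all genes tested in both fits, and 453 passed again. The lowest sample of 1 stage lay above the highest of the other in 491 of the 586, against 2614 (15.3%) of all genes tested. The count was 134 without Bar24, 156 without Bar29, 270 without Bar9, 348 without Bar22 and 379 without Bar26. In whole samples, fewer cells of a type and less of an RNA per cell cannot be told apart. The same test was also run on the 5352 cells outside 3 marker gates, defined below. There 1020 of 15668 genes passed (6.51%), 540 higher (3.45%) and 480 lower (3.06%). That fit leaves out the gated cells only, and the mix of cell types outside the gates was not tested. Of the 561 called genes that could be tested outside the gates, 558 had the same direction and 488 passed. Both fits share samples and cells, so this agreement is partly built in, and the same-direction share over all genes is not given here. Outside the gates the count was 286 without Bar29, 390 without Bar24 and 673 without Bar22. For single genes named below from that fit, whether the call held with a sample left out is not given.

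Among called genes with at least 20 CPM in the higher stage, no overlap between stages and the same direction in run 1, the 12 largest rises included Zic1, Col3a1 and Cxcl12. Zic1, a zinc finger factor of dorsal somite and neural tissue, rose on the log2 scale by 3.64 ± 0.49 (SE), adjusted p = 0.00526. Its level was 1.98, 4.13 and 1.25 CPM at E8.0 and 37.8, 35.6, 10.5, 20.1 and 39.3 CPM at E9.5. Every E9.5 sample lay above every E8.0 sample, with Bar4 the lowest at E9.5 and Bar26 the highest at E8.0. Col3a1, a fibrillar collagen of loose connective tissue, was at 15.6, 37.2 and 16.9 CPM and then at 232, 212, 102, 108 and 195 CPM, a change of 2.98 ± 0.35 (SE), adjusted p = 0.00335. Cxcl12, a chemokine that guides migrating cells, was at 6.12, 16.1 and 12.3 CPM and then at 95, 77.7, 33.7, 38.5 and 92.2 CPM (log2 change 2.66, SE 0.38, adjusted p = 0.00653). Neither gene's stages overlapped. Bar26 was the E8.0 sample nearest to E9.5 in these 3 genes, as it was for 323 of the 586 called genes (55.1%), against 44.4% of all genes tested. Parm1 (log2 change 2.42), Serpinf1, which encodes a secreted inhibitor of vessel growth (2.36), and Pcolce, an enhancer of procollagen processing (1.85), passed with any 1 sample left out. Of the other leading rises, the homeobox gene Barx1 (2.44) was lost without Bar24, Bar26 or Bar29, Mir99ahg (2.39) and Tril (1.99) without Bar24 or Bar29, and Nr2f1, a nuclear receptor of atrial and head mesoderm (1.90), without Bar9, Bar24 or Bar29. Sparcl1 (2.01) and Col11a1 (1.86) were lost without Bar24.

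**Figure D1:**
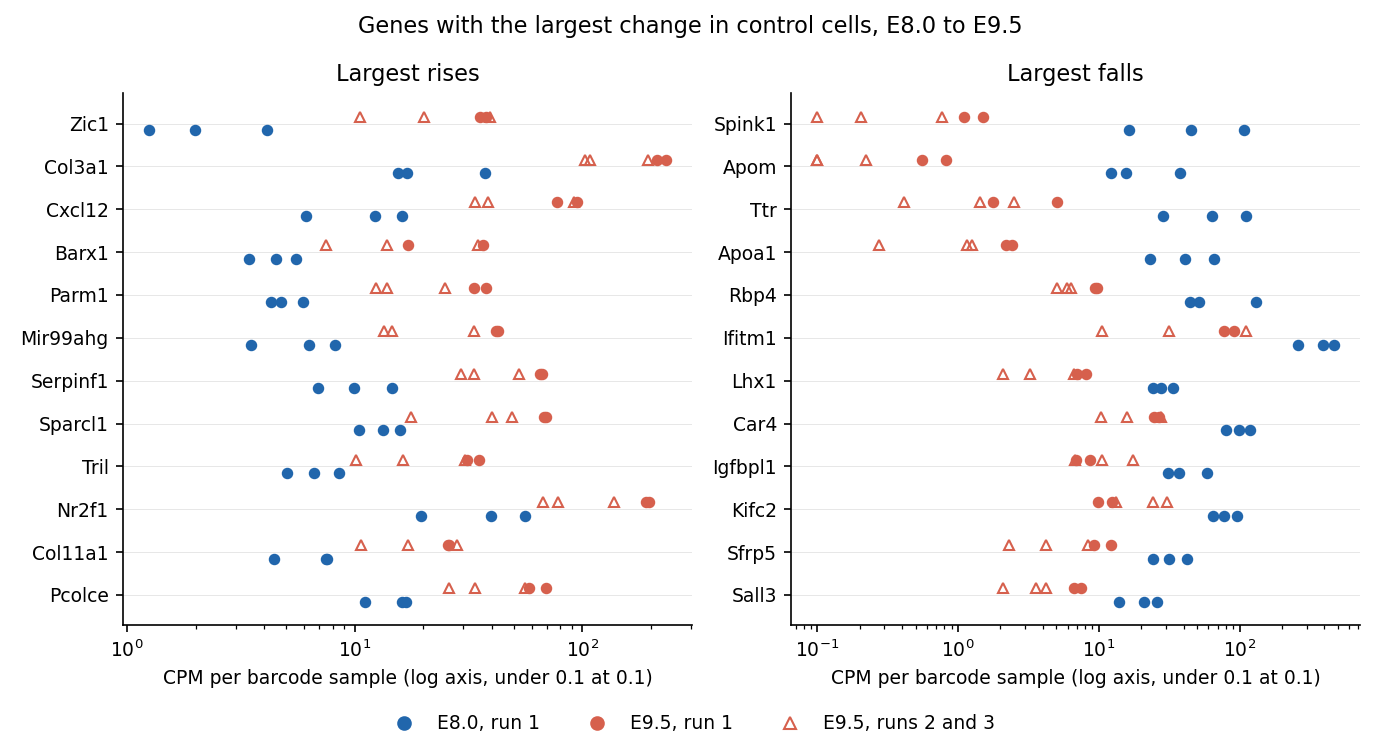
CPM of the 12 genes with the largest rises and the 12 with the largest falls in each control sample, on a log axis with values under 0.1 drawn at 0.1. Blue dots are the 3 E8.0 samples and red dots the 2 E9.5 samples of run 1, and triangles are the E9.5 samples of runs 2 and 3. In each gene every E9.5 sample lies on 1 side of every E8.0 sample, which the rule that chose these genes required.

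By the same rule, 5 of the 12 largest falls were Spink1 and the serum protein genes Apom, Ttr, Apoa1 and Rbp4. Ttr, Apoa1 and Rbp4 are markers of yolk sac endoderm, an epithelium that makes serum proteins for the embryo and is not mesoderm. All 8 tested genes of a yolk sac endoderm list fell, with a median log2 change of -3.68. Ttr, the carrier of thyroid hormone, was at 28.8, 63.5 and 110.3 CPM at E8.0 and 5.06, 1.78, 0.412, 2.51 and 1.43 CPM at E9.5, a change of -4.76 ± 0.55 (SE), adjusted p = 0.00335. Apoa1, the main protein of high-density lipoprotein, was at 23.3, 40.9 and 66.3 CPM and then at 2.42, 2.18, 0.274, 1.26 and 1.16 CPM (log2 change -4.67, SE 0.43, adjusted p = 0.00201). Bar29 held the most of both genes. These UMIs were not spread over the samples: 6 of 1549 E8.0 cells, 1 in Bar24, 1 in Bar26 and 4 in Bar29, devoted 2.63% to 5.01% of their UMIs to the list and held 95.2% of its UMIs at E8.0 (10319 of 10835). At E9.5, 4 of 5727 cells in Bar22 and Bar23 reached 0.177% to 0.587%, and none in the other samples passed 0.1%. These 10 cells were then left out, an alternative chosen after the data were seen. Since they were picked by their UMIs of the list, the values of its genes without them are a description and no test: none of the 6 that could be fitted passed, and their median was 0.42. Ttr then changed by -0.39 (adjusted p = 0.644), Apoa1 by -0.26 (adjusted p = 0.817), and Rbp4, the retinol carrier, by 0.30 (adjusted p = 0.397) in place of -3.19 with all cells. Apom (-5.47 with all cells), Apoa4 (-6.05) and Cubn (-3.84) were then too low to be tested. The same 6 cells held 92.7% of the E8.0 UMIs of Spink1, a secreted protease inhibitor that is not on the list. Spink1 changed by -5.80 with all cells and, without the 10 cells, by -2.53 (adjusted p = 0.0143). Of all called genes, 203 of the 248 falls and 312 of the 338 rises still passed.

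**Figure D2:**
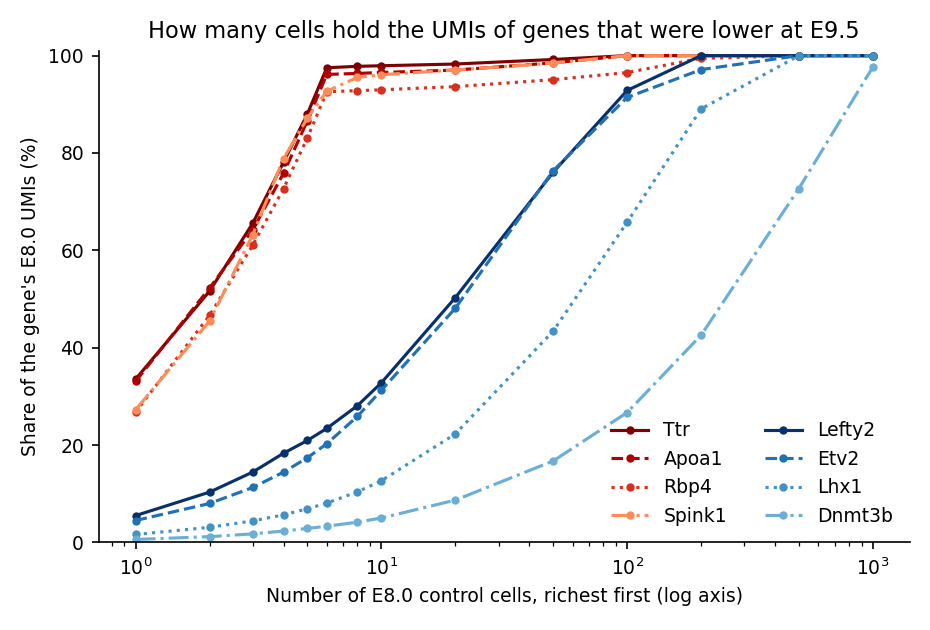
Cumulative percent of the E8.0 UMIs of a gene (y axis) against the number of E8.0 cells, ordered from the richest in that gene (x axis). The 6 richest cells hold 97.51% of the Ttr UMIs and 96.14% of those of Apoa1, whereas the 10 richest hold 32.8% for Lefty2, 31.2% for Etv2, 12.7% for Lhx1 and 5.02% for Dnmt3b.

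Of the 10 genes of left-right and Nodal signalling, 8 were tested and 3 fell, with none higher and a median of -0.32. Lefty2, a secreted Nodal antagonist of the left lateral plate, was at 5.04, 8.66 and 32.6 CPM and then at 0.529, 0.644, 0.206, 0 and 0.110 CPM, a change of -5.15 ± 0.64 (SE), adjusted p = 0.00379. Cfc1, the Nodal co-receptor Cryptic, was at 12.5, 5.93 and 13.7 CPM and then at 0.460, 0.446, 0.755, 0 and 0.496 CPM (log2 change -4.33, SE 0.37, adjusted p = 0.00201). Both were near 0 in every E9.5 sample and kept their calls with any 1 sample left out. Foxh1, a transcription factor that acts with Smad2 downstream of Nodal, changed by -2.63 ± 0.40 (SE), adjusted p = 0.00821, a call lost without Bar24. Its 3′ end lies next to that of Kifc2 (GRCm38 chr15:76659858-76668196, + strand, and Foxh1 chr15:76668225-76669948, - strand). Kifc2, a kinesin gene, fell too (-2.0, lost without Bar9, Bar24, Bar26 or Bar29), and because the use of strand in counting is not given in the sources used here, the reads of these neighbours may not be separable. Outside the gates the values were -4.79 for Foxh1 and -4.29 for Kifc2. Outside the gates 4 of 7 list genes fell, with a median of -0.74. Within run 1 alone Lefty2 changed by -4.75 and Cfc1 by -4.58.

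None of 13 tested primitive streak genes passed in all cells, at a median of -1.22 against 0.0056 over all genes tested. Outside the gates 4 of 12 fell and none rose. Among them Cdx2, a caudal homeobox factor, was at 77.3, 10.4 and 43.3 CPM and then at 5.64, 6.79, 12.8, 0 and 0.656 CPM (log2 change -2.86, SE 0.69, adjusted p = 0.0328), with Bar26 below one of the E9.5 samples, so that the stages overlapped. Within run 1 its adjusted p was 0.0515. Its relative Cdx1 changed by -1.70 (adjusted p = 0.0157) and Sp5, a target of canonical Wnt signalling, by -0.97 (adjusted p = 0.0349). Fgf8, a growth factor of the streak and of the second heart field, was at 29.5, 34.0 and 46.4 CPM and then at 9.47, 8.59, 23.6, 28.1 and 14.1 CPM outside the gates (log2 change -1.34, SE 0.35, adjusted p = 0.0437). The Bar7 value lay close to that of Bar24, and the change within run 1 was larger (-2.08).

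Of 14 tested pluripotency genes 3 fell and none rose. Pou5f1 (Oct4), which keeps early embryonic cells uncommitted, was at 8.81, 3.02 and 6.38 CPM and then at 1.26, 1.34, 0.755, 1.26 and 1.54 CPM, a change of -2.18 ± 0.34 (SE), adjusted p = 0.00983. Lin28a, an RNA-binding protein that blocks let-7 maturation, changed by -0.97 ± 0.21 (SE), adjusted p = 0.0364, and Sall4, a zinc finger factor, by -0.95 ± 0.20 (SE), adjusted p = 0.0302. Both of these calls were lost without Bar9, Bar22, Bar23, Bar24 or Bar29, that of Sall4 also without Bar4, with run as a term (adjusted p = 0.0734) and within run 1 (adjusted p = 0.0841). Of 8 tested genes of DNA methylation only Dnmt3b, a de novo methyltransferase, passed. It was at 60.8, 51.6 and 65.5 CPM at E8.0 and 28.6, 31.7, 23.0, 15.1 and 21.6 CPM at E9.5 (log2 change -1.15, SE 0.13, adjusted p = 0.00335), with no overlap and with its UMIs spread over many cells. Lhx1, a LIM homeobox factor of lateral and intermediate mesoderm, was at 24.3, 27.8 and 33.8 CPM and then at 6.95, 8.12, 6.65, 2.09 and 3.25 CPM (log2 change -2.19, SE 0.26, adjusted p = 0.00335), a call that held with any 1 sample left out. Sall3 changed by -1.87 and Car4, a carbonic anhydrase, by -2.08, and both calls held likewise. Ifitm1, a membrane protein of early mesoderm (-2.38), was lost without Bar9, Bar22, Bar24 or Bar29, and Igfbpl1 (-2.02) without Bar29.

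Of 20 endothelial genes 4 fell and 2 rose in all cells (median -0.67). Cells outside the gates, defined below, were chosen in part by 9 of these genes, so the list is not counted there. Etv2, the factor that starts the endothelial and blood programme, was at 79.1, 49.6 and 72.2 CPM and then at 17.0, 24.8, 19.4, 24.3 and 12.4 CPM (log2 change -1.65, SE 0.24, adjusted p = 0.00729), and kept its call with any 1 sample left out. Kdr, the main VEGF receptor, was at 73.6, 31.1 and 62.5 CPM and then at 25.1, 23.7, 15.4, 14.7 and 20.1 CPM (log2 change -1.34, SE 0.23, adjusted p = 0.0133), a call lost without Bar24 or Bar29, with run as a term (adjusted p = 0.0563) and within run 1 (adjusted p = 0.0773). In sarcomere-high cells Kdr rose instead (log2 change 1.31, SE 0.31, adjusted p = 0.021), a call lost there without Bar9, Bar24 or Bar29. Tek, the angiopoietin receptor Tie2, was at 13.1, 11 and 10.4 CPM and then at 5.66, 5.50, 5.21, 3.35 and 5.19 CPM (log2 change -1.04, SE 0.16, adjusted p = 0.00964), a call lost without Bar24. Npr3, a natriuretic peptide receptor of endocardium, changed by -0.88, lost without Bar9, Bar22, Bar23, Bar24, Bar26 or Bar29. The 2 rises were Emcn and Cldn5, and of the 20 genes 4 had a fitted change above 0 and 16 below 0. Emcn, which encodes endomucin of veins and capillaries, was at 5.76, 5.35 and 5.44 CPM and then at 12.9, 9.41, 11.1, 21.4 and 17.6 CPM (log2 change 1.51, SE 0.33, adjusted p = 0.0358). Cldn5, the tight junction protein of endothelium, rose by 1.11 ± 0.26 (SE), adjusted p = 0.0458. The Emcn call was lost without Bar4, Bar9, Bar24, Bar26 or Bar29 and the Cldn5 call without Bar4, Bar7, Bar9, Bar22, Bar26 or Bar29. Cldn5 also missed the threshold with run as a term (adjusted p = 0.0867) and within run 1 (adjusted p = 0.108). With globin-high cells left out neither passed (adjusted p = 0.0748 for Emcn and 0.061 for Cldn5). Cells with at least 0.1% of their UMIs in 9 endothelial genes were 5.45%, 2.12% and 5.28% of cells at E8.0 and 2.42%, 1.98%, 2.96%, 3.05% and 3.20% at E9.5, and this difference of -1.56 percentage points did not pass (two-sided exact permutation p = 0.179, adjusted over 3 shares 0.536).

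Cardiac transcription factors gave more falls than rises. Of 18 tested, 3 fell and 1 rose in all cells, and outside the gates, where cells rich in sarcomere UMIs are left out, 5 fell and none rose, at a median of -0.77. Of the E8.0 cells 3.55% lay within a factor of 2 of the sarcomere threshold, against 1.83% at E9.5. Outside the gates 2 of 19 tested sarcomere genes fell and none rose. The part of this choice of cells in the falls of heart factors outside the gates was not tested. Tbx20, a T-box factor of heart and lateral mesoderm, was at 29.6, 21.2 and 33.6 CPM and then at 13.8, 12.8, 8.57, 16.3 and 13.7 CPM (log2 change -1.0, SE 0.21, adjusted p = 0.0321). Gata5 was at 33.6, 29.2 and 41.0 CPM and then at 17.5, 16.8, 17.8, 14.2 and 12 CPM (log2 change -1.0, SE 0.16, adjusted p = 0.00983). Smarcd3, the Baf60c subunit of a chromatin remodeller of the heart, changed by -0.88 ± 0.14 (SE), adjusted p = 0.00924. The calls of Gata5 and Smarcd3 were lost without Bar24 or Bar29, and that of Tbx20 also without Bar9, Bar22 or Bar23. Tbx1, a T-box factor of pharyngeal mesoderm, rose by 0.67 ± 0.13 (SE), adjusted p = 0.0224, with overlapping stages and a call lost without Bar24, Bar26 or Bar29. Outside the gates Gata4 changed by -1.10 (adjusted p = 0.0318), from 35.1, 24.5 and 24.2 CPM to 16.1, 15.4, 14.1, 2.44 and 9.19 CPM with Bar7 the lowest.

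Of the 20 genes of the second heart field and venous pole, 4 rose and 2 fell in all cells (median 0.30). Besides Nr2f1 the rises were the following genes of the mesothelium, epicardium and outflow tract. Upk3b, a membrane protein of mesothelium, was at 0.540, 2.15 and 1.06 CPM and then at 7.22, 6.59, 6.04, 5.03 and 6.4 CPM (log2 change 2.41, SE 0.34, adjusted p = 0.00645). Wt1, a zinc finger factor of mesothelium and epicardium, was at 1.44, 2.67 and 1.63 CPM and then at 7.73, 7.78, 6.31, 4.19 and 8.00 CPM (log2 change 1.97, SE 0.25, adjusted p = 0.00417). Sema3c, a secreted guidance protein of the outflow tract, was at 1.53, 3.55 and 3.50 CPM and then at 12.8, 13.2, 5.62, 11.3 and 11.5 CPM (log2 change 2.02, SE 0.32, adjusted p = 0.01). These 3 calls held with any 1 sample left out. Aldh1a2, which makes retinoic acid, changed by -1.35 ± 0.30 (SE), adjusted p = 0.0394, lost without Bar4, Bar9, Bar22, Bar24, Bar26 or Bar29 and with run as a term (adjusted p = 0.0674). Lrrn4, a mesothelial surface protein, changed by -1.66, a call that held with any 1 sample left out. Of 18 tested genes of heart chambers, hormones and ion handling 1 rose and 1 fell in all cells (median 0.17): Nppa changed by 3.80 ± 0.56 (SE), adjusted p = 0.00729, and Bmp2 is given with the signalling genes. Nppa had a UMI in 143 of 5727 E9.5 cells (2.5%), and its 10 richest cells held 48.2% of its E9.5 UMIs.

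Genes of somite and head mesoderm gave rises and no falls in all cells. Of 20 tested somite and cranial genes 4 rose and none fell (median 0.55), and outside the gates 7 of 19 rose and 1 fell. Meox2, a homeobox factor of somite and limb muscle, was at 1.08, 3.78 and 1.94 CPM and then at 18.5, 18.1, 9.05, 6.70 and 20.0 CPM (log2 change 2.79, SE 0.41, adjusted p = 0.00729), a call that held with any 1 sample left out. Myf5, which starts the skeletal muscle programme, changed from 0.450, 2.09 and 0.625 CPM to 4.58, 5.2, 3.91, 1.68 and 3.97 CPM (log2 change 2.0, SE 0.44, adjusted p = 0.0372), with overlapping stages and a call lost without Bar4, Bar9, Bar22, Bar23, Bar24 or Bar29 and within run 1 (adjusted p = 0.0555). Scx, a tendon factor, rose by 1.43, lost without Bar24 or Bar29, and Prrx1, a factor of limb and head connective tissue, by 1.18, lost without Bar24. Outside the gates Pax1, a sclerotome factor, was at 0.738, 8.60 and 3.51 CPM and then at 38.0, 39.6, 13.2, 9.77 and 24.6 CPM (log2 change 2.60, SE 0.55, adjusted p = 0.0196). Its relative Pax9 changed there by 1.32 (adjusted p = 0.0427) and Ebf1 by 0.91 (adjusted p = 0.0369).

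Of 32 tested Hox genes, which give positions along the body axis, 2 rose and none fell in all cells (median 0.45). Hoxa4 was at 0.720, 1.34 and 1.94 CPM and then at 10.2, 8.62, 6.52, 0.838 and 6.57 CPM (log2 change 2.47, SE 0.45, adjusted p = 0.0184), and Hoxc5 rose by 2.54 ± 0.46 (SE), adjusted p = 0.0187. In both the stages overlapped through the low value of Bar7, and both calls were lost without Bar24, Bar26 or Bar29. Outside the gates 3 Hox genes rose and 2 fell: Hoxa5 changed by 1.21 (adjusted p = 0.0435) and the more anterior Hoxb1 by -1.15 (adjusted p = 0.0448) and Hoxd1 by -1.80 (adjusted p = 0.0219). Hoxb1 went from 50.02, 68.6 and 48.2 CPM to 33.0, 31.3, 29.6, 8.54 and 12.6 CPM, with every E9.5 sample below every E8.0 sample.

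Collagen genes were tested next. Of 18 tested 4 rose and none fell in all cells (median 0.80), and outside the gates 10 of 18 rose and none fell (median 0.86). Besides Col3a1 and Col11a1 the risen genes in all cells were Col9a1, of cartilage (log2 change 1.46, SE 0.25, adjusted p = 0.0129, lost without Bar24 or Bar29), and Col26a1 (log2 change 1.30, SE 0.25, adjusted p = 0.0224, lost without Bar9, Bar24 or Bar29). In both the stages overlapped. Outside the gates the fibrillar collagens Col1a1 (0.91, adjusted p = 0.0295), Col1a2 (0.81, adjusted p = 0.0203) and Col2a1, of notochord and cartilage (1.08, adjusted p = 0.0295), also passed. In sarcomere-high cells, described below, none of 14 rose and 1 fell, Col13a1 (log2 change -1.71, SE 0.28, adjusted p = 0.00278), which held with any 1 sample left out. Of 23 other matrix genes 2 rose and 2 fell. Lum, a small proteoglycan that spaces collagen fibrils, was at 10.6, 21.1 and 10.8 CPM and then at 46.9, 48.7, 44.6, 27.6 and 47.3 CPM (log2 change 1.74, SE 0.25, adjusted p = 0.00645) and held with any 1 sample left out. Fbln2 rose by 1.38, lost without Bar24, Bar26 or Bar29. Fn1, fibronectin of the early matrix, changed by -0.89 ± 0.17 (SE), adjusted p = 0.0193, lost without Bar9, Bar24 or Bar29, and Hapln1, which links hyaluronan in cardiac jelly, by -0.71 ± 0.16 (SE), adjusted p = 0.038, lost without Bar9, Bar22, Bar23, Bar24, Bar26 or Bar29 and with globin-high cells left out (adjusted p = 0.065). None of 11 tested smooth muscle genes passed in all cells (median 0.45), and 1 rose outside the gates, Myl9 (1.15, adjusted p = 0.0112, and 0.0562 within run 1).

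**Figure D3:**
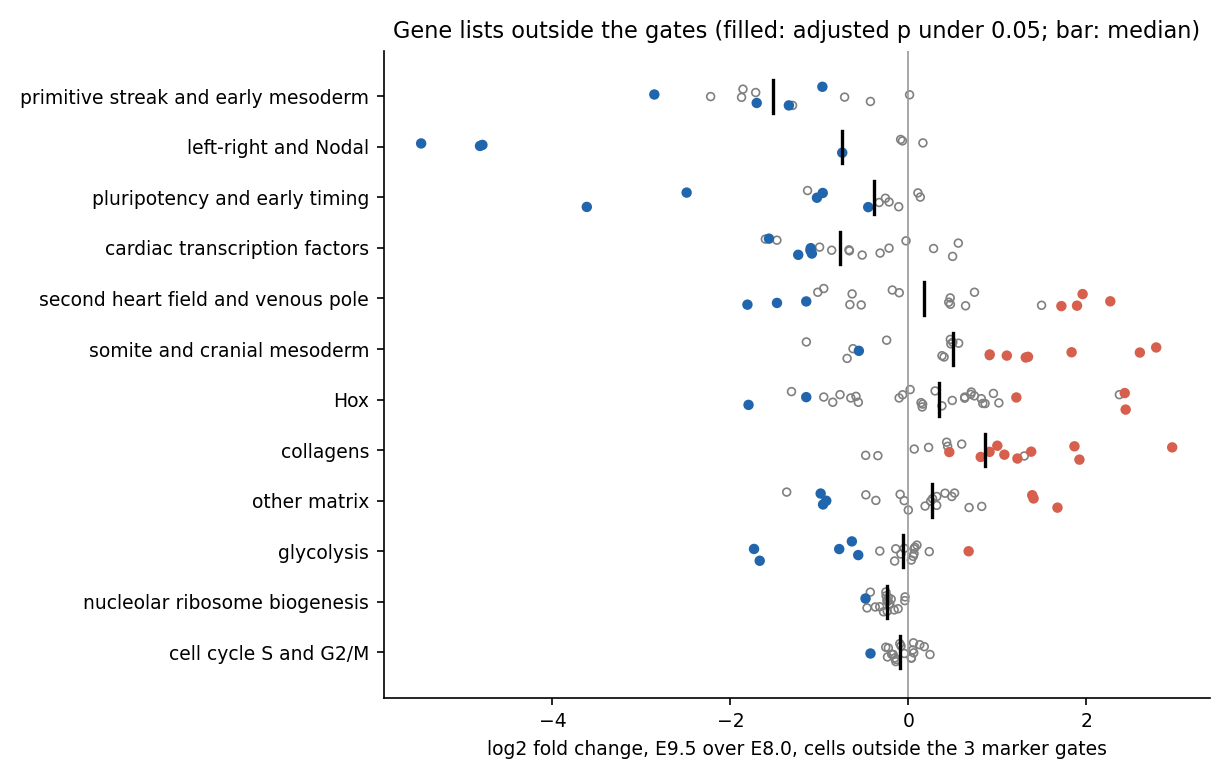
Log2 change from E8.0 to E9.5 outside the gates (x axis) for each tested gene of 12 lists (y axis). Filled points passed an adjusted p of 0.05 and the bar is the list's median, which is 0.86 for collagens with 10 of 18 genes higher and -0.77 for cardiac transcription factors with 5 lower. These cells were chosen in part by their sarcomere UMIs, and the part of that choice in the cardiac factors was not tested.

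Of 20 Wnt genes 1 rose and 1 fell in all cells (median -0.25), and outside the gates 1 of 19 rose and 4 fell. Wnt4, a ligand of kidney and body wall mesoderm, changed by 1.68 ± 0.39 (SE), adjusted p = 0.0474 with overlapping stages, lost without Bar4, Bar9, Bar22, Bar24, Bar26 or Bar29. Sfrp5, a secreted Wnt inhibitor of cardiac progenitors and foregut, was at 31.4, 24.2 and 42.4 CPM and then at 9.32, 12.2, 8.44, 4.19 and 2.32 CPM (log2 change -1.98, SE 0.37, adjusted p = 0.0202), a call lost without Bar24 or Bar29. Wls changed by -0.52 outside the gates (adjusted p = 0.0381). Of 24 BMP, FGF and hedgehog genes 2 fell and none rose in all cells (median -0.34), and outside the gates 5 fell. Fgf3, a ligand of cardiac progenitors and hindbrain, was at 32.6, 2.04 and 8.32 CPM and then at 1.03, 0.842, 0.892, 0 and 0.828 CPM (log2 change -3.97, SE 0.73, adjusted p = 0.0187), lost without Bar9 or Bar24, with run as a term (adjusted p = 0.0674) and within run 1 (adjusted p = 0.0878). Bmp2, a ligand of the atrioventricular canal, changed by -1.13 ± 0.24 (SE), adjusted p = 0.0302, lost without Bar9, Bar22, Bar23, Bar24 or Bar29. Ptch1, the hedgehog receptor and target, changed by -0.71 outside the gates (adjusted p = 0.00251). Of 14 tested retinoic acid genes 1 rose and 1 fell: Crabp2, which carries retinoic acid to its receptor, went from 26.3, 60.2 and 60.6 CPM to 171, 183, 119, 84.2 and 126 CPM (log2 change 1.61, SE 0.26, adjusted p = 0.0109), while its synthetic enzyme Aldh1a2 fell as above. The Crabp2 call held with any 1 sample left out.

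The following lists hold genes that most cells use. Of 18 tested glycolysis genes 4 fell and none rose in all cells (median -0.11). Aldoa, an aldolase, is on this list but had a mean of 0.172 CPM at E8.0 and 0.167 CPM at E9.5 and was not tested. Slc2a3, the glucose transporter Glut3, was at 85.9, 89.0 and 121 CPM and then at 41.3, 41.7, 24.4, 39.0 and 31.1 CPM (log2 change -1.34, SE 0.17, adjusted p = 0.00379), and held with any 1 sample left out. Of its E8.0 UMIs, 15.7% were in the 6 cells with yolk sac endoderm markers and 21.7% in its 10 richest cells. Slc2a1 (Glut1) changed by -0.91, the lactate transporter Slc16a1 by -0.68 and hexokinase 2, Hk2, by -0.57. These 3 calls were lost without Bar9, Bar22, Bar23, Bar24, Bar26 or Bar29, that of Slc2a1 also without Bar7, and Slc16a1 had an adjusted p of 0.0556 without the yolk sac endoderm cells. The Hk2 call was also lost within run 1 (adjusted p = 0.0616). In sarcomere-high cells Slc2a1 rose instead (log2 change 0.62, SE 0.17, adjusted p = 0.0345), a call lost there without Bar4, Bar9, Bar22, Bar24 or Bar29. All 20 nucleolar genes, which build ribosomes, had a value below 0 with a median of -0.30, but none passed. Of 20 cell cycle genes only Ccne2 (cyclin E2) passed (-0.49), and of 13 D cyclins and cell cycle inhibitors only Cdkn1a, the inhibitor p21 (1.18). Both calls were lost without Bar4, Bar9, Bar22, Bar24, Bar26 or Bar29, that of Ccne2 also without Bar23, and both without the yolk sac endoderm cells. Cdkn1a had an adjusted p of 0.0928 with run as a term. With globin-high cells left out the adjusted p was 0.124 for Ccne2 and 0.0755 for Cdkn1a. None of 13 mitochondrial genes passed (median -0.34, and 0.00 within run 1), and of 16 stress genes 1 fell, the chaperone Hsph1 (-0.64, lost without Bar9, Bar24 or Bar29, and with run as a term, adjusted p = 0.0646, or within run 1, adjusted p = 0.0707).

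Among 23 imprinted genes, whose 2 parental copies are used unequally, 1 rose and 1 fell. Igf2, a fetal growth factor, had a mean of 13 CPM at E8.0 and 10.6 CPM at E9.5. How the counting treated reads that match several genes is not given in the sources used here, and whether Aldoa and Igf2 were undercounted was not tested. Nnat, a small membrane protein, was at 144, 174 and 180.5 CPM and then at 308, 332, 300.0, 239.5 and 309.5 CPM (log2 change 0.99, SE 0.11, adjusted p = 0.00335), and Snrpn, a splicing protein, at 112, 102 and 126 CPM and then at 59.0, 57.0, 54.8, 30.6 and 35.1 CPM (log2 change -1.11, SE 0.16, adjusted p = 0.00729). Both calls held with any 1 sample left out. Among 9 neural genes Nes (nestin, an intermediate filament also of early muscle and endothelium) rose by 1.36 ± 0.15 (SE), adjusted p = 0.00305 and Stmn2, a tubulin-binding protein of neurons, changed by -2.68 ± 0.32 (SE), adjusted p = 0.00335. None of 5 neural crest genes (median -0.24) and none of 8 endoderm and epithelium genes (median -0.58) passed in all cells.

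Blood and muscle take varying shares of these samples. A cell was put in the globin-high gate if at least 1% of its UMIs came from 7 globin genes, and in the sarcomere-high gate if at least 0.5% came from 10 sarcomere genes. Globin-high cells were 26.7%, 30.3% and 8.45% of the E8.0 samples and 8.98%, 8.90%, 28.8%, 43.9% and 25.9% of the E9.5 samples, a difference of means of 1.47 percentage points (two-sided exact permutation p = 1). Within run 1 the difference was -12.87 points, and without Bar29 or Bar7 it also turned negative. With the threshold halved it was 20.6 points (two-sided exact permutation p = 0.429), with shares of 79.3% in Bar7, 85.6% in Bar9, 9.95%, 9.31% and 32.6% in Bar22, Bar23 and Bar4, and 27.2%, 31.1% and 9.86% at E8.0. Of the E9.5 cells, 17.4% lay within a factor of 2 of the globin threshold, against 2.19% at E8.0. Sarcomere-high cells were 6.27%, 6.51% and 13% at E8.0 and 5.33%, 4.01%, 6.09%, 15.2% and 8.35% at E9.5 (two-sided exact permutation p = 0.786). The smallest p that 3 against 5 samples allow is 0.0357. In all cells none of 20 sarcomere genes, 8 globin genes or 19 erythroid genes passed, with medians of 0.75, 2.21 and 0.13. Cells outside the gates were chosen in part by their globin UMIs, which differed between the stages, so erythroid genes are not counted there. Within run 1 the medians were -0.07, 0.67 and -0.85, so the direction of the sarcomere and erythroid medians depended on the runs that entered. In that run 4 of 19 erythroid genes fell and none rose, and no sarcomere or globin gene passed. None of 10 tested megakaryocyte and macrophage genes passed (median 2.40), and these markers summed to 14.7 to 31.0 CPM at E8.0 and 11.4 to 215 CPM at E9.5. Within run 1, 1 of 7 tested rose and the median was 0.56. The sums at E9.5 were 40.3 and 29.2 CPM in Bar22 and Bar23 of that run, and 102 and 215 CPM in Bar7 and Bar9 of run 3. Cells outside the gates carried globin UMIs at different levels too: Hbb-y was at 528, 548 and 537 CPM there at E8.0 and at 633, 619.8, 597, 2786 and 2909 CPM at E9.5, highest in the samples of run 3.

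Within sarcomere-high cells 668 of 9448 genes passed (7.07%), 461 higher (4.88%) and 207 lower (2.19%). The count was 103 without Bar29, 253 without Bar24 and 235 with the gate threshold doubled. The gate's own 10 genes were used for the choice and are not read as results. Of the 10 other genes of the sarcomere list, Myl2 and Tnni3 among them, 7 rose and none fell (median 0.95). Nppa, which encodes the atrial natriuretic peptide and marks the working myocardium of the forming chambers, rose most of the list genes called in these cells. The 250 bases before its start, from RefSeq on the GRCm38.p6 assembly (chr4:148000472-148000721, + strand), are shown because Nppa led the rises. Capitals mark matches to a T-box element (TCACACC, 250 to 244 bases before the start), an NKX2-5 element (TNAAGTG, at 241 to 235) and a TATA box (TATAAA, at 9 to 4), searched on both strands, and the matches do not overlap.
Nppa: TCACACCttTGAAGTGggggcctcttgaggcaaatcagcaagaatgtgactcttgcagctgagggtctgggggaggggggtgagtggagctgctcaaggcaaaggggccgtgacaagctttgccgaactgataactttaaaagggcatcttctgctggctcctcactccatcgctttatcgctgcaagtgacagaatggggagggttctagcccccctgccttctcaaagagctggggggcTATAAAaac
The T-box letters are found in 3.33% of the 32851 promoter windows, the NKX2-5 letters in 10.1% and the TATA letters in 12.4%, so that these matches describe the sequence and show no binding. The exact GATA letters AGATAA (9.99% of windows) were not found in this window. It does hold the similar letters TGATAA, which were not searched for, so a GATA element is not shown to be absent.

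Nppa was at 0, 39.6 and 2.65 CPM in the sarcomere-high cells at E8.0 and at 611, 252, 298, 202 and 189 CPM at E9.5, a change of 4.57 ± 0.65 (SE), adjusted p = 0.00124. Bar26 was the highest E8.0 sample and Bar22 stood above the other E9.5 samples, and the stages did not overlap. Myl2, the regulatory light chain of ventricular muscle, was at 102, 514 and 100.8 CPM and then at 2376, 1215, 842, 2159 and 1731 CPM (log2 change 2.86, SE 0.51, adjusted p = 0.00409). Tnni3, the troponin I of mature heart muscle, was at 113, 235 and 71.1 CPM and then at 699, 446, 514, 1340 and 877 CPM (log2 change 2.54, SE 0.41, adjusted p = 0.00271). These 3 genes held with any 1 sample left out. Of 16 tested chamber genes 6 rose and 1 fell (median 0.28), among them Nppb, the B-type peptide (3.14), Pln, the phospholamban that restrains calcium uptake (2.37), and Kcne1, a potassium channel subunit (2.73), which were lost without Bar24 or Bar29. Within run 1 Pln had an adjusted p of 0.0517, and Kcne1 could not be tested. With a sample left out, Pln and Kcne1 could each be tested in only 6 fits and passed in 4 of them. Of 15 second heart field and venous pole genes 5 rose and 1 fell (median 0.71). Sema3c was at 3.06, 19.3 and 4.25 CPM and then at 55.9, 56.2, 33.8, 48.9 and 38.5 CPM (log2 change 2.49, SE 0.39, adjusted p = 0.00213) and held with any 1 sample left out. Tbx18, a factor of the sinus venosus and epicardium (3.04), and Upk3b (3.06) were lost without Bar29, and Wt1 (2.16) without each of 7 samples and within run 1 (adjusted p = 0.137).

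Of 18 cardiac transcription factors tested in the same cells 5 fell and none rose, and 13 did not pass (median -0.40). Tbx5, a T-box factor of the first heart field and atria, was at 110.0, 117 and 91.3 CPM and then at 62.2, 55.6, 49.9, 32.6 and 46.7 CPM (log2 change -0.98, SE 0.16, adjusted p = 0.00297), without overlap, and held with any 1 sample left out. Gata5 (-0.92), Myocd, a partner of serum response factor (-0.77), and Mef2c (-0.70) were lost without Bar24 or Bar29, and Myocd (adjusted p = 0.0516) and Mef2c (adjusted p = 0.0621) also within run 1. Cfc1 was at 26.0, 23.2 and 37.1 CPM and then at 3.61, 1.81, 3.22, 0 and 4.12 CPM (log2 change -3.23, SE 0.35, adjusted p = 0.000178). Has2, which makes the hyaluronan of cardiac jelly (-1.90), Lin28a (-1.57), Phlda2, an imprinted growth regulator (-3.48), and the ligand Wnt2 (-0.91) held with any 1 sample left out. Of the 3 Wnt genes that fell, Sfrp5 (-1.87) and Wnt5a (-1.01) were lost without Bar29, and Wnt5a also within run 1 (adjusted p = 0.0618). Of 18 tested glycolysis genes 6 rose, none fell and 12 did not pass (median 0.21). The rises included Hk1, hexokinase 1 (log2 change 2.30, SE 0.36, adjusted p = 0.00218), and Ldhb, the heart form of lactate dehydrogenase (log2 change 1.21, SE 0.20, adjusted p = 0.00271). In both, the call held with any 1 sample left out. Of 10 tested smooth muscle genes 3 rose, among them Acta2, smooth muscle actin (log2 change 1.04, SE 0.17, adjusted p = 0.00271), and Tagln (1.12, lost without Bar24 or Bar29).

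**Figure D4:**
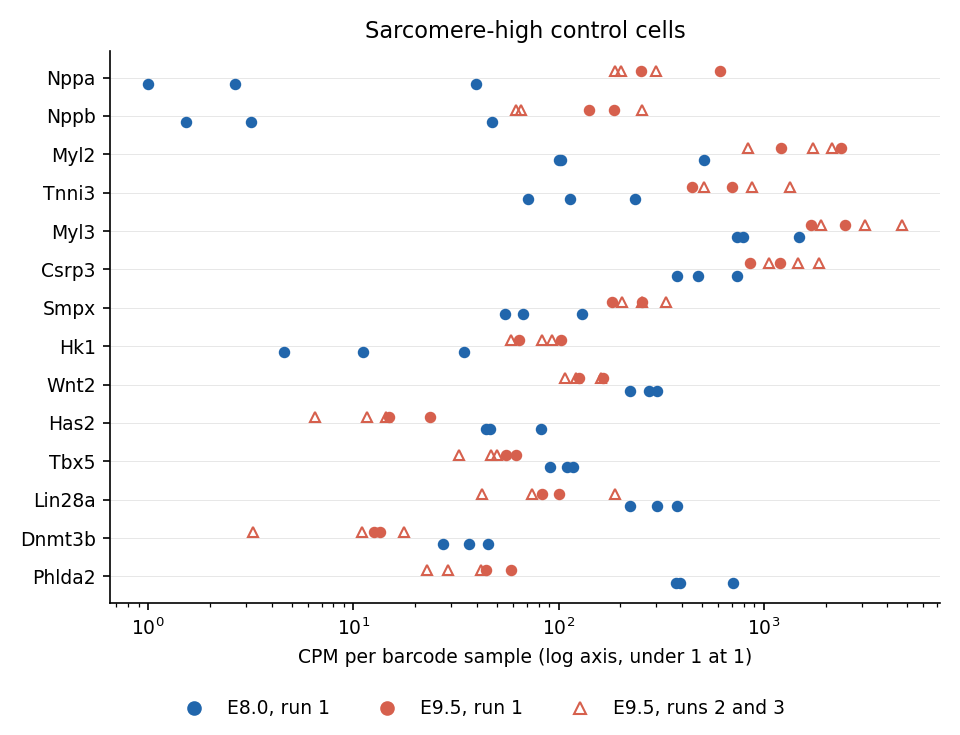
CPM of genes within sarcomere-high cells in each control sample, on a log axis with values under 1 drawn at 1. Colours give the stage and triangles runs 2 and 3. Nppa lies between 0 and 39.6 CPM at E8.0 and between 188.8 and 610.9 CPM at E9.5, and Tbx5 lies lower in each E9.5 sample than in each E8.0 sample.

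Within globin-high cells, a comparison added after the data were seen, 1438 of 11064 genes passed (13%), 408 without Bar24 and 477 without Bar29. The 7 globin genes chose these cells, and their levels are a description only. The 250 bases before the start of Hbb-y, the embryonic beta-like globin, are shown because it changed most among them (GRCm38.p6 chr7:103853208-103853457, - strand, from RefSeq). Capitals mark a CCAAT box at 83 to 79 bases before the start, letters found in 33.8% of promoter windows. The exact CACC letters CCACACCC (3.2% of windows) were not found there. The window does hold the shorter letters CCACCC, which were not searched for.
Hbb-y: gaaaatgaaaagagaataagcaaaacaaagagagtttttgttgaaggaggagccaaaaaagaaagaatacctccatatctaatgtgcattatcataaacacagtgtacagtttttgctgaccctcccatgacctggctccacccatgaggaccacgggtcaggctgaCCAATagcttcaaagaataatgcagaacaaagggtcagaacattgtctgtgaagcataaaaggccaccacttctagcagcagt
Hbb-y was at 2187, 16700 and 1955 CPM at E8.0 and 113300, 107300, 134300, 202400 and 184000 CPM at E9.5, and Hba-x, the embryonic alpha-like globin, at 26880, 58590 and 23170 CPM and 107000, 108900, 129100, 143700 and 124500 CPM. Bar26 was nearest to E9.5 in both.

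Of 18 tested erythroid genes, none of which defined the gate, 9 rose and 2 fell (median 0.55). Alas2, the first enzyme of haem synthesis in red cells, was at 40.4, 93.5 and 43.8 CPM and then at 165, 169.7, 182, 163 and 174 CPM (log2 change 2.10, SE 0.27, adjusted p = 0.000982). Slc25a37, the mitochondrial iron importer mitoferrin, rose by 1.5 ± 0.24 (SE), adjusted p = 0.00296. Slc4a1, the anion exchanger band 3 of the red cell membrane, was at 30.9, 255 and 37.0 CPM and then at 436, 441, 277, 338 and 298 CPM (log2 change 2.25, SE 0.58, adjusted p = 0.0269), a call lost without Bar7, Bar24 or Bar29 and within run 1 (adjusted p = 0.0661). Alas2 and Slc25a37 held with any 1 sample left out. The falls were in factors of blood progenitors: Runx1 was at 64.7, 37.8 and 70.0 CPM and then at 12.8, 12.9, 8.92, 5.02 and 10.4 CPM (log2 change -1.83, SE 0.21, adjusted p = 0.000461), and Lmo2, a bridging protein of the progenitor complex, at 375, 200.4 and 413 CPM and then at 72.5, 91.2, 89.8, 59.5 and 68.9 CPM (log2 change -1.47, SE 0.19, adjusted p = 0.00102). Both held with any 1 sample left out. Gata1, the main erythroid factor, was at 148, 145 and 146 CPM and then at 104, 101.4, 98.0, 70.3 and 72.3 CPM with a fitted change of -0.10 ± 0.12 (SE), adjusted p = 0.616, and Klf1 did not pass either (0.55, adjusted p = 0.0571). The CPM of Gata1 are shares of all UMIs, of which globins held more at E9.5, whereas the fitted change is scaled with TMM factors. Of 18 tested glycolysis genes 10 fell and none rose (median -0.59), among them Hk2 (log2 change -1.56, SE 0.28, adjusted p = 0.00502) and the enolase Eno1 (-1.10), whose calls held with any 1 sample left out. Of 20 nucleolar genes 8 fell and none rose (median -0.44).

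Markers of other cells were also examined in the globin-high cells, where of all 11064 genes 782 rose, 656 fell and 5511 had a fitted change above 0. All 13 tested collagens had a fitted change above 0 (median 1.17) and 2 passed, among them Col3a1 (log2 change 2.11, SE 0.63, adjusted p = 0.0455). Of 8 tested somite and cranial genes all were above 0 (median 1.63) and 2 passed, among them Prrx1 (2.58). Of 16 tested sarcomere genes 14 were above 0 (median 1.91) and 1 passed, Mybpc3 (2.73). Within run 1, 9 of 16 sarcomere genes were above 0 (median 0.04), 1 rose and 2 fell. Collagens had a median of 1.04 in that run, and somite and cranial genes 1.80. Of 14 tested cardiac transcription factors 13 were above 0 and none passed. As shares of all UMIs these lists did not separate the stages: collagens summed to 64.0 to 71.3 CPM at E8.0 and 26.8 to 164 CPM at E9.5, and sarcomere genes to 312 to 324 and 112 to 944 CPM. Somite and cranial genes, of which 3 were at 0 in every sample of each stage, summed to 36.5 to 51.0 and 22.3 to 119 CPM. Of 12 tested stress genes 11 were above 0 and 4 rose, including the immediate early gene Egr1 (log2 change 2.10, SE 0.38, adjusted p = 0.00479) and the metallothionein Mt2 (2.96), and that list summed to 504 to 591 and 300 to 1719 CPM. The median of the stress genes was 1.20, and 0.34 within run 1, where 10 of 15 were above 0 and 4 rose. Of the genes named here the Egr1 call held with any 1 sample left out, Prrx1 was lost without Bar24 or Bar29, Mt2 without Bar23, Bar24, Bar26 or Bar29, and Col3a1 and Mybpc3 without each of 6 or more samples. The part of these other cells and of stress in the globin-high result was not tested.

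**Figure D5:**
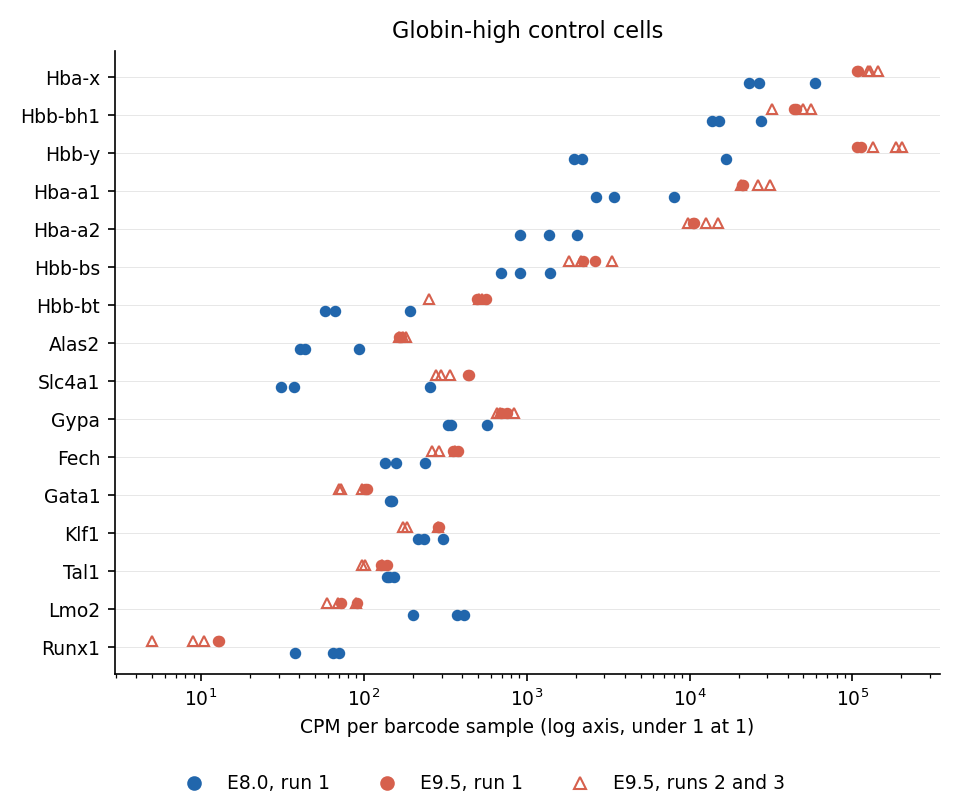
CPM of genes within globin-high cells in each control sample, on a log axis with values under 1 drawn at 1. Colours give the stage and triangles runs 2 and 3. Hbb-y lies between 1955 and 16700 CPM at E8.0 and between 107300 and 202400 CPM at E9.5, and Runx1 and Lmo2 are lower in every E9.5 sample.

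The change from E8.0 to E9.5 was then compared with that of the mutants (3 samples at E8.0 and 6 at E9.5). Sex was not balanced between these groups: Xist was at 4.67 to 7.60 CPM in E8.0 mutants and at 66.1 to 125.5 CPM in E8.0 controls. At E9.5 it was at 1.08 to 172.7 CPM in mutants and at 7.54 to 141.5 CPM in controls. The part of sex in the interaction was not tested. The interaction of stage and genotype was called in 24 of 17891 genes (0.134%), and 1273 had an unadjusted p under 0.05. In 23 of the 24 the change was higher in mutants. Within run 1, 32 genes were called, among them 11 of the 24. Ndrg1, a stress-induced growth inhibitor, changed by 0.033 on the log2 scale in controls and by 2.79 in mutants, a difference of 2.74 ± 0.37 (SE), adjusted p = 0.00617. Slc2a3 changed by -1.34 in controls and by 0.77 in mutants, a difference of 2.13 ± 0.26 (SE), adjusted p = 0.0034. These 2 genes were the only ones called with any 1 sample left out. Ddit4, an inhibitor of mTOR signalling, had a difference of 2.73, lost without Bar27 and within run 1 (adjusted p = 0.0636). Egln3 (2.26), a hydroxylase that marks HIF proteins for breakdown, Ier3 (2.70) and Ndufa4l2 (2.57) were lost without each of 5 or more samples, and Ndufa4l2 also within run 1 (adjusted p = 0.0624). Nnat was the one gene with a lower change in mutants (0.99 in controls, 0.19 in mutants, difference -0.79), lost without Bar25, Bar27, Bar28 or Bar29. The count was 2 without Bar27, 3 without Bar25, 4 without Bar29, 6 without Bar21 or Bar22, 8 without Bar10 or Bar26, 9 without Bar28, 11 without Bar19, 12 without Bar9, 13 without Bar23 and 55 without Bar20. With equal numbers of cells drawn from every sample it was 2.

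The E8.5 controls, Bar2 (34 cells) and Bar3 (2508 cells), were both in run 2 and entered no test. Bar2 and Bar3 had 50.4 and 148 CPM of Col3a1, 17.2 and 72.0 CPM of Cxcl12, and 36.7 and 24.6 CPM of Dnmt3b. For Lefty2 the values were 1.15 and 0.228 CPM, and for Lhx1 26.4 and 3.70 CPM. No E8.0 sample was in run 2, so stage and run cannot be told apart between E8.0 and E8.5. Bar4, an E9.5 control whose levels are given above, was in run 2 too. It lay between Bar2 and Bar3 in Col3a1, Cxcl12 and Lhx1, and below both in Dnmt3b. Lefty2 was near 0 in Bar3 and Bar4, and Bar2 held only 34 cells, so no order is read for that gene.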

How the data were processed

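Single cells of barcoded, reporter-sorted mouse embryos were measured by droplet RNA sequencing. The authors deposited raw UMI counts as whole numbers for 51923 genes in 14777 cells, and a per-cell table of run, barcode, stage and condition. Per the submitters' processing notes, kallisto, bustools 0.46.1, Cell Ranger and GRCm38 were used. Which annotation, strand setting and cell filters they used is not given in the sources used here. All 51923 symbols matched GENCODE M21, from which positions were taken. No doublet caller was run.

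Counts were summed per barcode sample and compared by the two-sided quasi-likelihood F test of edgeR 4.0.16 under R 4.3.3, after its filterByExpr and TMM steps, with no covariate and Benjamini-Hochberg adjustment at 0.05. The interaction model held stage and genotype. DESeq2 1.42.0, DESeq2 size factors, no filter on low counts, run as a term, run 1 alone, equal numbers of cells (164 per control sample, 57 with mutants), samples of any size, other gate thresholds and leaving out each sample were alternatives. Shares of gated cells were compared by exact permutation with SciPy 1.17.1 under Python 3.11.15 (NumPy 2.4.6, pandas 2.3.3). The script was tested on simulated data. The globin-high comparison and the removal of yolk sac endoderm cells were added after the data were seen.

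The groups, the 31 gene lists (508 genes, 480 tested), the gates and the rule for naming genes were chosen with earlier results of these data known, so no list is independent evidence. The rule named the 12 largest rises and 12 largest falls among called genes with at least 20 CPM in the higher stage, no overlap between stages and the same direction in run 1, without predicted genes, pseudogenes, ribosomal protein genes, Xist and Y-linked genes, then up to 4 rises and 4 falls per list, and 5 interaction genes each way. Genes named from cells outside the gates and in the gates beyond that rule were chosen after their values were seen. Promoter sequences were looked up for 77 genes, of which 56 had an entry.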

Additional observations from a re-analysis of the deposited data

Results flagged for a closer look

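In groups of 5 samples the highest and the lowest value were each compared with the nearest other value, relative to the range. Of 173 groups examined 14 had a sample apart, where chance gives about 5%. The sample apart was Bar7 in 5, Bar4 in 4, Bar23 in 3 and Bar22 in 2. All are E9.5 controls, and levels are in CPM.

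In all cells, Bar7 had 3.35 of Tek (the others 5.186 to 5.659), 27.64 of Lum (44.59 to 48.71) and 0 of Fgf3 (0.8275 to 1.035). Bar7 was also the smallest sample, with 164 cells. Globins summed to 227977 CPM in Bar7 and to 38817 to 127155 CPM in the other E9.5 controls. CPM are shares of all UMIs, and the part of the globins in these low values was not tested. Bar4 had 5.625 of Sema3c (11.31 to 13.25).

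In sarcomere-high cells, Bar4 stood above the others for Fgf8 at 83.75 (38.45 to 40.46), Trim71 at 116 (70.79 to 82.39) and Nes at 219 (83.08 to 110.9). Bar23 had 98.44 of Tdgf1 (62.48 to 67.63), Bar22 had 610.9 of Nppa (188.8 to 298) and Bar7 had 163 of Pfkp (81.53 to 97.5).

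In globin-high cells, Bar23 had 1.373 of Fgf3 (0 to 0.3579) and 0.9807 of Apoa1 (0 to 0.1827). Bar7 had 415.3 of mt-Nd5 (470.6 to 485), and Bar22 had 310.9 of Mt2 (12.56 to 79.24).

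The change from E8.0 to E9.5 differed between mutants and controls, by edgeR's interaction test, in 24 genes. As log2 change in mutants minus that in controls the values were 4.57 for Nxph4, 3.91 for Sncb, 3.46 for Nrn1, 3.19 for Bhlhe40, 2.81 for Ascl2, 2.74 for Ndrg1, 2.73 for Ddit4, 2.70 for Ier3, 2.57 for Ndufa4l2, 2.44 for Aldoc and 2.26 for Egln3. They were 2.19 for Ppp1r3c, 2.13 for Slc2a3, 2.07 for Ankrd37, 1.85 for Vldlr, 1.59 for Rora, 1.57 for Mgarp, 1.56 for Pfkfb3, 1.46 for Vegfa, 1.38 for Sdc4, 1.25 for Hk2, 1.11 for Kdm7a, 0.83 for Eif4a2 and -0.79 for Nnat. Ndrg1 and Slc2a3 were the only ones of the 24 called with any 1 sample left out.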

How the results depend on the processing

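No paired analysis was possible because the barcode samples carry no replicate numbers shared between the stages, and the fit with run as a term blocks on run only. The count for all cells (586) was 1120 with DESeq2, 1077 in run 1, 936 with run as a term and 194 with equal numbers of cells, and 134 to 719 with each sample left out in turn. The interaction count (24) was 98 with DESeq2, 103 with run as a term, 37 without the filter on low counts and 2 with equal numbers of cells, and 2 to 55 with a sample left out. Outside the gates (1020) it was 1710 in run 1, and 286 to 1268 with a sample left out. In sarcomere-high cells (668) it was 235 with doubled gate thresholds, and 103 to 730 with a sample left out. In globin-high cells (1438) it was 408 to 1752 with a sample left out. The difference in the share of globin-high cells (1.47 points) was -12.87 in run 1, 20.6 with the threshold halved and -5.21 to 5.71 with a sample left out, negative without Bar29 (-5.21) and without Bar7 (-3.69). That of sarcomere-high cells (-0.80) was -2.66 to 1.41, positive without Bar29 (1.41) and without Bar23 (0.148), -3.93 in run 1 and near 0 with the threshold doubled (-0.0042). That of endothelial-high cells (-1.56) was -2.65 to -0.98, -2.58 with the threshold halved and -0.64 with it doubled. Rbp4 changed sign without the yolk sac endoderm cells (0.30). The cause of these shifts was not tested. Equal numbers, run 1 and left-out samples use fewer cells, and the count for all cells was higher in some of these fits and lower in others. Of 76 named genes tested in all cells, 34 passed in all 8 fits with a sample left out, 76 with DESeq2, 69 in run 1, 69 with run as a term, 71 with globin-high cells left out and 68 with samples of any number of cells. Of 67 with a value at equal numbers of cells 40 passed. Bar7 (164 cells) limits the depth at E9.5.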
